A study of Rattus norvegicus with 6 samples.

Results

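The sarcomeric myosin heavy chains Myh1, Myh2, Myh3, Myh4 and Myh7 were followed in rat tibialis anterior muscle after its nerve had been cut, led away and later repaired. Members were all probe sets on the array whose platform annotation gives exactly 1 gene symbol, that symbol being 1 of these 5. This gave 5 of the 10412 genes so annotated, measured by 10 of the 15923 probe sets, namely 5 for Myh1, 2 for Myh7 and 1 each for Myh2, Myh3 and Myh4. All 10 passed the filter on dim probe sets, which used the mean log2 value over all 6 libraries. The means of both groups lay above it for 9, whereas Myh3 passed through its ipsilateral libraries alone (mean log2 8.91 ipsilaterally and 5.72 contralaterally, filter 5.86).

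Total RNA came from both legs of 3 male Wistar rats, aged 8 weeks, here called animals 4, 5 and 6 after their labels. The ipsilateral group (n = 3) is the tibialis anterior on the side where the peroneal nerve was transected, its stump stitched onto the biceps femoris, and both nerve stumps joined after 4 weeks, with a survival of 8 weeks. The contralateral group (n = 3) is the same muscle of the other leg of the same operated, ketamine- and xylazine-anaesthetised animals, so it is not muscle of an unoperated rat. From when the 8 weeks of survival were counted is not stated. The comparison asks how the muscle of the operated side differs from that of the other leg.

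Myosin heavy chains are the motor proteins of the thick filament, and which of them a fibre contains largely sets how fast it shortens. In adult rat limb muscle, slow type I fibres contain the Myh7 product, and fast fibres contain those of Myh2 (type IIa), Myh1 (type IIx) and Myh4 (type IIb, the fastest). Myh3 encodes the embryonic form, made in developing and regenerating fibres. The tibialis anterior of the rat is a mostly fast muscle, and the pattern of nerve activity is known to influence which adult isoform is made.

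In the gene table of rat assembly GRCr8, Myh3, Myh2, Myh1 and Myh4 stand in this order on chromosome 10, followed by Myh8 and Myh13, while Myh7 stands beside Myh6 on chromosome 15. The sequences upstream of the 4 neighbouring members are shown because these genes share a locus but differed in how far the muscles of an animal lay apart. Each line gives the 250 bases before the start site in RefSeq (GRCr8), 5′ to 3′. Capitals mark the TATA motif TATAAAA and the longest stretch that Myh2, Myh1 and Myh4 have in common.
Myh3, chr10:52268935-52269184, plus strand: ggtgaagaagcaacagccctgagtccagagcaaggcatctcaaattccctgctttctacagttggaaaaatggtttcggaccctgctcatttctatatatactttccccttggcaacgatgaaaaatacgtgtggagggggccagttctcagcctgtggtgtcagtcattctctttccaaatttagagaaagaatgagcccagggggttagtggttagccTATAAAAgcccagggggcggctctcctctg
Myh2, chr10:52355489-52355738, plus strand: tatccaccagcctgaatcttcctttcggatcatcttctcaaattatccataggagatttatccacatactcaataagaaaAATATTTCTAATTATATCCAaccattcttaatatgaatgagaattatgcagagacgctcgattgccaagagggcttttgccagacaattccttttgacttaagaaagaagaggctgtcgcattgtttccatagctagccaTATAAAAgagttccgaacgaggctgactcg
Myh1, chr10:52384662-52384911, plus strand: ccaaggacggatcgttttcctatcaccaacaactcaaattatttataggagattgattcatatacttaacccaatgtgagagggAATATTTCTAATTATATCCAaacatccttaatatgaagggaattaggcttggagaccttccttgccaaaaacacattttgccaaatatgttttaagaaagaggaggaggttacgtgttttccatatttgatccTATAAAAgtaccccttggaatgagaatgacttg
Myh4, chr10:52421898-52422147, plus strand: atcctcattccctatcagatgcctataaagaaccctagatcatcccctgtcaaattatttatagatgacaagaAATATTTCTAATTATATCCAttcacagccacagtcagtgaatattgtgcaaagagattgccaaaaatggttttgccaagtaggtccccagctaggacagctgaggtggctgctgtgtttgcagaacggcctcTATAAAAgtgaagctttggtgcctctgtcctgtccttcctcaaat
The common stretch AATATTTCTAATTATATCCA, of 20 bases, ended 150 bases before the start site in Myh2, 146 in Myh1 and 157 in Myh4, and had no match in the windows of Myh3 or Myh7. Of 27457 rat upstream windows of this length, 4 (0.0146%) held it on either strand, the other being that of LOC102555216 on the opposite strand of chromosome 10. TATAAAA was found on either strand in 5.36% of all windows and ended 23 bases before the start site in Myh3 and Myh2, 26 in Myh1 and 38 in Myh4. The Myh1 start site used by RefSeq here lies 102 bases inside the outermost start of the gene, and that of Myh7 lies 1657 bases inside, so the Myh7 window is not shown.

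Other motifs were searched on both strands, and no match overlapped another. The E-box CANNTG, the site of factors such as MyoD and myogenin, had 1 match in Myh3, 2 in Myh4, 3 in Myh7 and 0 in Myh2 and Myh1, against at least 1 match in 65.2% of all windows. The MEF2 motif had 1 match each in Myh1 and Myh4 (3.07% of all windows), the CArG box of serum response factor 1 match in Myh4 (1.5%), and the M-CAT motif CATTCC 1 match each in Myh1 and Myh4 (11.8%). These are matches of letters only.

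The 6 libraries, 1 array each, had median intensities of 60.3 to 66.6 and a trimmed mean of 149 to 150, and the number of arrays limits the precision. The brightest probe set of any kind reached 6299 to 9181 per array. The 3' to middle ratio of the actin control, a measure of RNA integrity, was 2.87 in ipsilateral 6 and 2.77 in contralateral 4, against 1.36 to 1.68 in the other 4 libraries. Its part in the results was not tested. The tissue label was checked with 7 muscle fibre markers (among them Acta1, Ckm and Ttn), which were all tested and summed to intensities of 32795 to 38389 ipsilaterally and 35944 to 43049 contralaterally. In such whole-muscle RNA, fewer fibres of a type and less RNA per fibre cannot be told apart.

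The muscles of the operated side had more transcript of embryonic Myh3 and slow Myh7 and less of fast IIb Myh4 in all 3 animals, while fast IIx Myh1 and IIa Myh2 had no common direction. The libraries of the groups did not overlap for 4 of the 10 member probe sets. These were the 1 of Myh3 and both of Myh7, higher, and the 1 of Myh4, lower. The same 4 had an unadjusted p under 0.05 in limma's paired fit and had 1 direction in every animal. Since Myh3 was tested only through the group where it is high, it is not set against the shares over all tested probe sets. Of the other 9 member probe sets, 3 met each of these 3 criteria. Of all 9519 tested probe sets, the groups did not overlap for 10.5% (4.74% higher, 5.78% lower). An unadjusted p under 0.05 was met by 6.36%, and 1 direction in every animal by 27.4%. None of the 10 passed the Benjamini-Hochberg adjusted threshold of 0.05, nor did any of the 9519 (0%). Without animal 4, where differences were smallest for Myh3, Myh7 and Myh4, the same 4 member probe sets passed. With Myh3 left aside, 3 of the other 9 passed, against 2.53% of all tested probe sets (1.55% higher, 0.977% lower). Without animal 5 or without animal 6, 0 members passed.

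**Figure D1:**
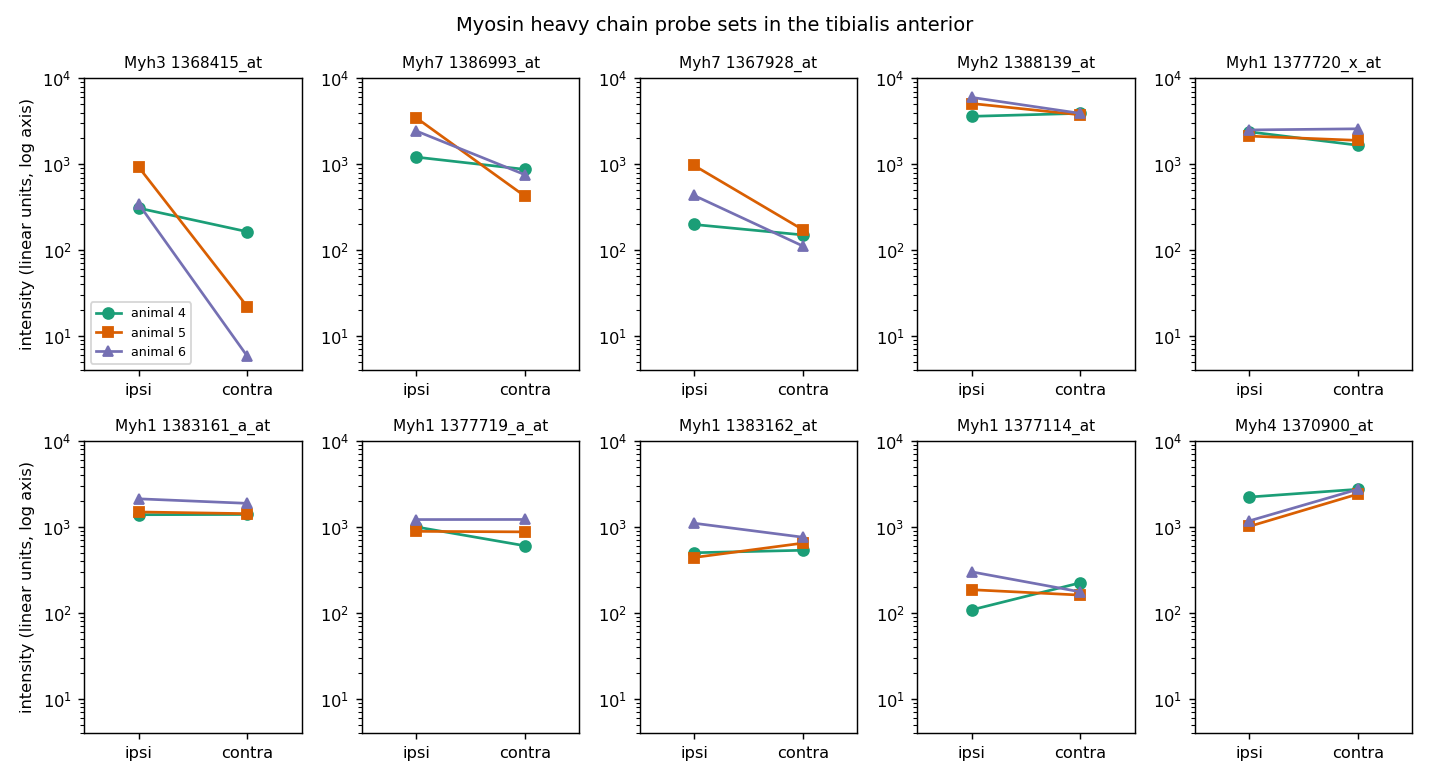
Intensity on a log axis of each of the 10 member probe sets in the ipsilateral (ipsi) and contralateral (contra) tibialis anterior, with a line joining the muscles of 1 animal. For Myh3 and both Myh7 probe sets every ipsilateral value lies above every contralateral one, for Myh4 below, and the other 6 overlap.

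Myh3, the embryonic isoform, had intensities of 308.9 in animal 4, 930.6 in animal 5 and 345.6 in animal 6 ipsilaterally, against 164.0, 21.9 and 5.8 contralaterally in animals 4, 5 and 6. Contralateral 4 thus stood well above the other contralateral libraries, whereas ipsilateral 4 was close to ipsilateral 6. The group means were 528 ± 349 ipsilaterally and 63.9 ± 87.1 contralaterally (SD, n = 3 each). The mean paired log2 difference after a pseudocount of 15.8 was 3.19 (SE 0.56, 95% interval 1.93 to 4.45, limma adjusted p = 0.282), the 3 animals giving 0.85, 4.65 and 4.06. Because 2 of the contralateral values lie near or below the pseudocount, the size depends on it, and was 3.98 with a pseudocount of 1 and 2.56 with one at the 40th percentile. Without animal 4 the difference was 4.36 (limma adjusted p = 1.23e-06, with 1 residual degree of freedom), whereas the adjusted p was 0.29 to 0.879 in the 7 other settings with all animals, 0.9999 without animal 5 and 0.988 without animal 6.

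Other genes of developing or regenerating muscle were measured beside Myh3. Of 12 such markers, 9 were on the array and 5 were tested. Of these 5, 3 were higher in every animal, against 12.3% of all tested probe sets, and 0 passed the adjusted threshold. Myog and Myod1 were lower in animal 4, by -0.31 and -0.12 on the log2 scale. The summed intensity of the 9 markers was 899 to 1428 ipsilaterally and 709 to 867 contralaterally, and no marker was at 0 in all libraries. Myl4, the embryonic and atrial myosin light chain, had 176.7, 371.4 and 137.9 ipsilaterally, against 124.3, 121.7 and 68.4 contralaterally, in animals 4, 5 and 6 (log2 difference 0.94, SE 0.20, limma adjusted p = 0.333). Myh8, the perinatal heavy chain, was below the filter on both sides, at 3.5, 11.9 and 1.3 ipsilaterally and 8.2, 9.0 and 1.0 contralaterally. Whether the other developmental markers had a part in the Myh3 values was not tested.

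Myh7, the slow type I isoform, had on its brighter probe set (1386993_at) intensities of 1212.5, 3473.9 and 2443.8 ipsilaterally in animals 4, 5 and 6, against 872.3, 424.1 and 755.3 contralaterally. Animal 5 had the lowest contralateral and the highest ipsilateral value. The means were 2377 ± 1132 and 684 ± 232 (SD, n = 3 each), and the log2 difference was 1.71 (SE 0.36, 95% interval 0.90 to 2.52, limma adjusted p = 0.333), the 3 animals giving 0.47, 2.99 and 1.67. The dimmer probe set (1367928_at), designed on the same transcript accession, had 199.1, 970.4 and 434.6 ipsilaterally, against 150.6, 173.5 and 111.9 contralaterally. Its log2 difference was 1.52 (SE 0.31, 95% interval 0.82 to 2.22, limma adjusted p = 0.333). The Myh7 probe sets lay within 0.10 of each other in animal 4, 0.61 in animal 5 and 0.15 in animal 6 on the log2 scale, so animals differed more than probe sets did. Without animal 4 the differences were 2.33 and 2.10 for the brighter and the dimmer probe set (limma adjusted p = 0.000626 and 0.000222), against adjusted p-values of 0.316 to 0.9999 in the brighter and 0.332 to 0.9999 in the dimmer probe set over the other settings.

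Myh7 is also the slow heavy chain of the heart, and the heart's Myh6 is its neighbour. The brighter of 2 Myh6 probe sets had 18.5, 28.1 and 20.6 ipsilaterally and 24.2, 10.9 and 28.7 contralaterally, below the filter and with no common direction. Of 5 heart markers on the array none passed the filter, and their summed intensity was 57.3 to 76.5 ipsilaterally and 52.8 to 84.7 contralaterally. Their part in the Myh7 values was not tested.

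Myh2, the fast oxidative IIa isoform, had intensities of 3618, 5103.8 and 6015.3 ipsilaterally in animals 4, 5 and 6, against 3923, 3769.1 and 3917.3 contralaterally. The contralateral values were nearly alike, with a coefficient of variation of 2.25%, while the ipsilateral values had one of 24.6%. Animals 5 and 6 were higher on the operated side by 0.44 and 0.62 on the log2 scale, and animal 4 differed by -0.12. The mean log2 difference of 0.31 (SE 0.15, 95% interval -0.02 to 0.65, limma adjusted p = 0.776) did not pass, and 12.7% of tested probe sets had a larger absolute difference. In ipsilateral 6 Myh2 came close to the brightest values of any probe set on that array, where a ceiling could compress differences. This was not tested.

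Myh1, the fast IIx isoform, was measured by 5 probe sets whose mean log2 differences ran from -0.03 to 0.24, and none had 1 direction in all animals. The brightest (1377720_x_at) had 2388.7, 2130.5 and 2511.3 ipsilaterally in animals 4, 5 and 6, against 1666.5, 1899.1 and 2591.5 contralaterally, a mean difference of 0.21 (SE 0.14, 95% interval -0.11 to 0.54, limma adjusted p = 0.836). The next (1383161_a_at) had 1390.5, 1496.3 and 2129.1 ipsilaterally, against 1399.8, 1430.4 and 1885.6 contralaterally, and its mean difference was 0.08 (SE 0.13, 95% interval -0.22 to 0.37). In animals 4, 5 and 6 the log2 differences were 0.52, 0.16 and -0.05 on the brightest and -0.01, 0.06 and 0.17 on the next, so these probe sets lay furthest apart in animal 4. On the brightest, contralateral 4 was the lowest of the 6 libraries, and ipsilateral 4 lay between the other ipsilateral ones.

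The Myh1 probe sets did not agree in animal 4. There the probe sets 1377719_a_at and 1377720_x_at, which share an accession, had differences of 0.72 and 0.52, 1383161_a_at and 1383162_at, which share another, had -0.01 and -0.09, and 1377114_at had -0.95. The spread between the highest and the lowest was 1.67 on the log2 scale in animal 4, against 0.73 in animal 5 and 0.77 in animal 6. The dimmest, 1377114_at, had 108.4, 186.1 and 300.4 ipsilaterally, against 224.2, 161.1 and 175.6 contralaterally, so its mean difference of -0.01 (SE 0.27) averaged opposite values. The suffixes a and x mark probe sets shared by transcripts of a gene or open to similar sequences elsewhere. Since Myh1, Myh2 and Myh4 are close paralogs, shared signal is possible for each of their probe sets and was not tested.

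Myh4, the IIb isoform of the fastest glycolytic fibres, had intensities of 2233.3, 1015.9 and 1178.7 ipsilaterally in animals 4, 5 and 6, against 2750.8, 2421.3 and 2751.9 contralaterally. Animals 5 and 6 had well under the contralateral signal on the operated side, with ipsilateral over contralateral ratios of 0.42 and 0.428, and animal 4 had a ratio of 0.812. The means were 1476 ± 661 and 2641 ± 191 (SD, n = 3 each). The log2 difference was -0.92 (SE 0.19, 95% interval -1.34 to -0.49, limma adjusted p = 0.333), and 0.494% of tested probe sets had a larger absolute difference. Without animal 4 it was -1.23 (limma adjusted p = 0.000972), against adjusted p-values of 0.332 to 0.9999 over the other settings.

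**Figure D2:**
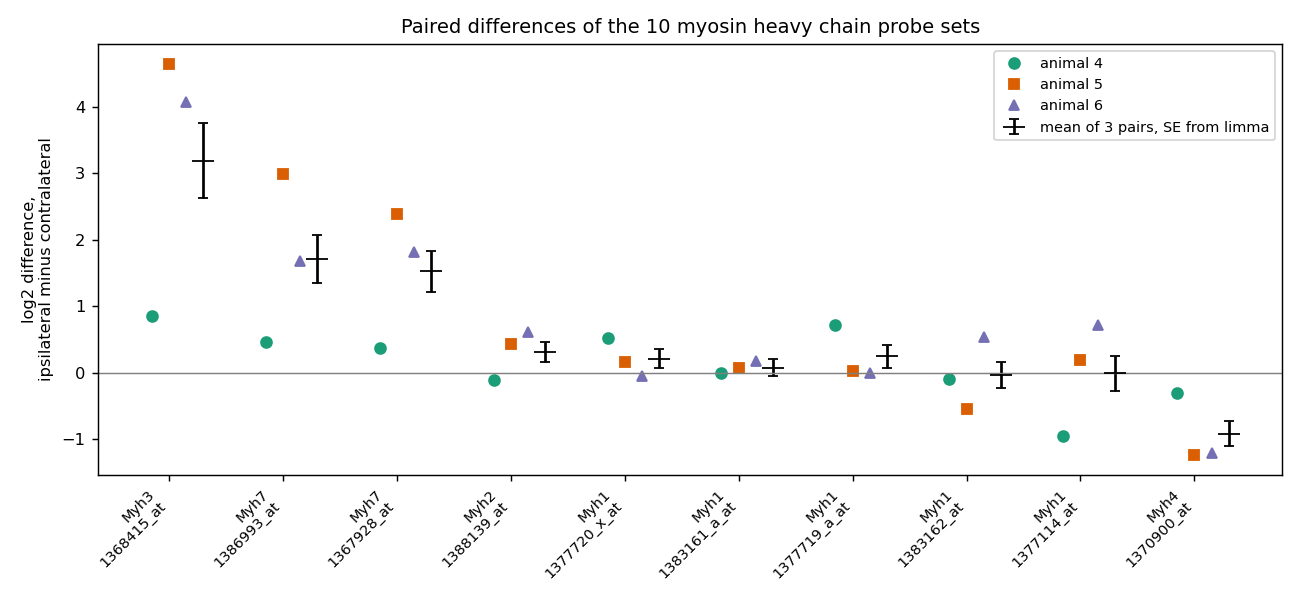
Log2 difference, ipsilateral minus contralateral, of each member probe set in animals 4, 5 and 6 (points), with the mean of 3 pairs and its SE from limma (black). Animal 4 lies nearest to 0 for Myh3, Myh7 and Myh4, and on the 5 Myh1 probe sets the animals fall on both sides of 0.

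Read together within an animal, the brightest probe set of each gene gave the same order of differences in animals 5 and 6, with Myh3 highest, then Myh7, Myh2, Myh1 and Myh4. In animal 5 the differences were 4.65, 2.99, 0.44, 0.16 and -1.24 in that order, and in animal 6 they were 4.06, 1.67, 0.62, -0.05 and -1.21. In animal 4 Myh1 stood second, and the order was Myh3 at 0.85, Myh1 at 0.52, Myh7 at 0.47, Myh2 at -0.12 and Myh4 at -0.30. Myh3 was at the top and Myh4 at the bottom in every animal. Intensities of different probe sets are not compared with each other, only how they differ between the muscles.

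Isoform balance was taken as the log2 ratio of a pair of isoforms within each library, ipsilateral minus contralateral, over 6 pairs of genes, each gene by its brightest probe set. The ratio of slow Myh7 to fast IIb Myh4 was higher ipsilaterally by 2.63 ± 1.75 on the log2 scale (SD, n = 3), namely by 0.77, 4.23 and 2.89 in animals 4, 5 and 6. The ratio of embryonic Myh3 to Myh4 was higher by 4.11 ± 2.58, that of Myh2 to Myh4 by 1.23 ± 0.91 and that of Myh1 to Myh4 by 1.13 ± 0.30. In animals 4, 5 and 6 the Myh2 to Myh4 ratio was higher by 0.18, 1.68 and 1.83, and the Myh1 to Myh4 ratio by 0.81, 1.40 and 1.17. The Myh1 value in animal 4 depends on the probe set, being 1.01 with 1377719_a_at, 0.29 with 1383161_a_at, 0.21 with 1383162_at and -0.65 with 1377114_at. In animals 5 and 6 all 5 Myh1 probe sets gave a higher ratio. The ratio of Myh7 to Myh2 was higher by 1.40 ± 1.03 and that of Myh3 to Myh7 by 1.48 ± 1.02. Without animal 5 the Myh7 to Myh2 value was 0.82, and the Myh3 to Myh7 value was 2.24 with a pseudocount of 1 and 0.89 when the 40th percentile was added instead. On the brightest probe sets all 6 pairs were higher in 3 of 3 animals, and because they share genes they are not separate observations. For Myh3 and for Myh7 over Myh4 this had to follow, since their differences had opposite signs in every animal. Since Myh3 stood highest and Myh4 lowest in every animal, the direction of the other pairs with Myh4 and of Myh3 over Myh7 followed too. Only that of Myh7 over Myh2 was not fixed by this order. The ratios with Myh3 stand as description only, since its probe set passed the filter through the ipsilateral libraries alone. The exact two-sided sign-flip permutation test gave p = 0.25 for each of the 6 ratios. That is the smallest p that 3 animals allow, so this test cannot reach the threshold.

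**Figure D3:**
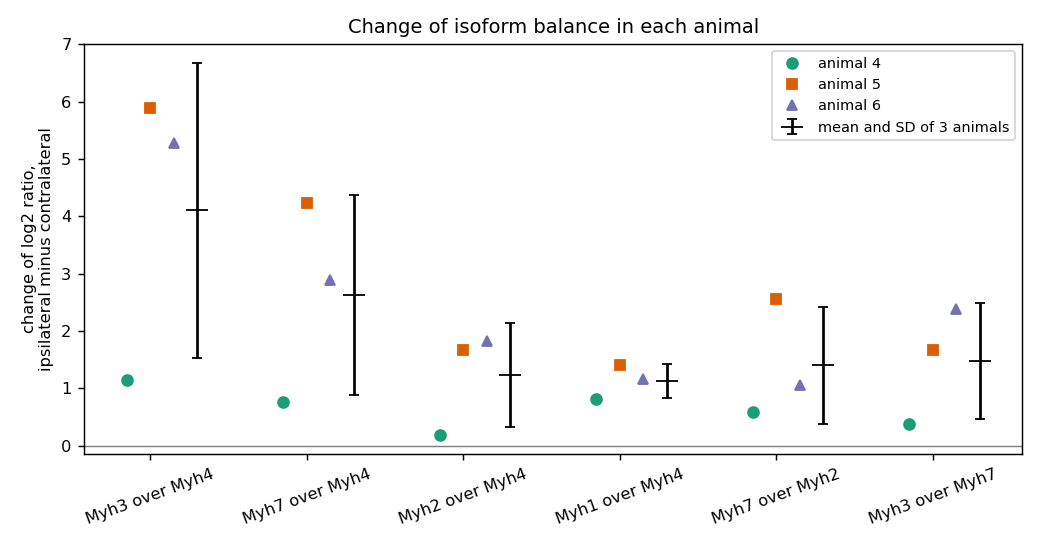
Change of the log2 ratio between isoforms on the brightest probe set of each gene, ipsilateral minus contralateral, in each animal (points) with mean and SD (black). All 18 points lie above 0, and animal 4 is the lowest in every pair of isoforms. The pairs share genes, so the points are not separate observations. Myh3 stood highest and Myh4 lowest in every animal, which fixed the sign of all pairs but Myh7 over Myh2. The Myh3 probe set passed the filter through its ipsilateral libraries alone.

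**Figure D4:**
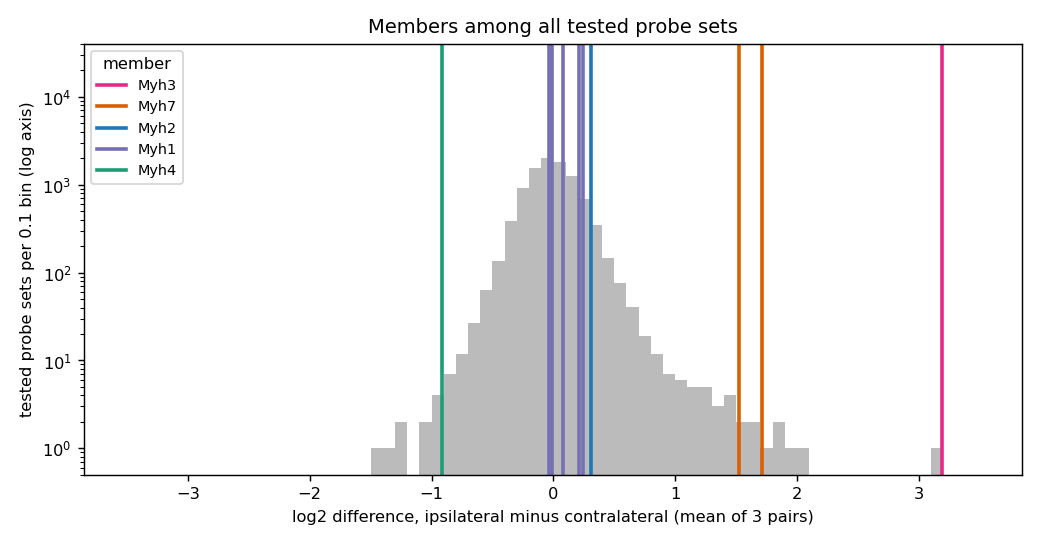
Distribution of the mean log2 difference over the 9519 tested probe sets (grey, counts on a log axis), with the 10 member probe sets as coloured lines. The Myh3 line stands at 3.19, from a probe set that passed the filter through its ipsilateral libraries alone, the Myh7 lines stand at 1.52 and 1.71, Myh4 stands at -0.92, and the Myh1 and Myh2 lines lie between -0.03 and 0.31.

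Other myosin heavy chains, most of them of non-muscle, smooth or specialised muscle, were measured beside the 5 members. Of 10 genes on the list, 6 were on the array and 3 were tested, with 0 past the adjusted threshold in either direction. Myh9, a non-muscle heavy chain found in most other cells, had 517.1, 650.3 and 553.2 ipsilaterally, against 366.8, 349.1 and 454.5 contralaterally, a log2 difference of 0.54 (SE 0.17, limma adjusted p = 0.559). All its ipsilateral values lay above the contralateral ones. Myh10, another non-muscle chain, differed by 0.53 (SE 0.25) with -0.26 in animal 4, and the smooth muscle chain Myh11 by -0.24 (SE 0.15). Myh13, the extraocular chain, was dim in every library, at 3.4 to 8.0 ipsilaterally and 3.9 to 7.7 contralaterally.

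Partners of myosin in the thick filament and in its assembly formed another list. Of its 22 genes, 15 were on the array and 12 were tested, and 0 passed the adjusted threshold in either direction. At an unadjusted p under 0.05, 1 was higher (background 3.57%) and 1 was lower (background 2.78%), both shares being from the fit with all animals. Without animal 4 these counts were 2 and 3. The number over all tested probe sets, in either direction, rose as well, from 605 with all animals to 1491 without animal 4. With all animals, the median log2 difference of the list was -0.12, against -0.02 over all tested probe sets. Mybpc2, the fast myosin-binding protein C, had 4400.1, 3323.5 and 4186.7 ipsilaterally, against 5287.4, 5520.9 and 4778.8 contralaterally (log2 difference -0.39, SE 0.13), with no overlap between the groups. Another tested Mybpc2 probe set, the dimmer, differed by -0.79. Titin, Ttn, the spring that centres the thick filament, differed by 0.35 (SE 0.13), with 0.17, 0.24 and 0.65 in animals 4, 5 and 6. Mylk2, the kinase of the fast muscle regulatory light chain, had a log2 difference of -0.57 (SE 0.30), from values of 0.51, -1.39 and -0.85 in animals 4, 5 and 6. Its dimmer tested probe set differed by -0.91. Mybph, myosin-binding protein H, differed by -0.32 (SE 0.17), with 0.10 in animal 4.

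Regulators that are known to act on myosin isoform genes formed the last list. Of 30 genes, 18 were on the array and 16 were tested, and 0 passed the adjusted threshold. At an unadjusted p under 0.05, 2 were higher (Rcan1 and Prox1, background 3.57%) and 1 was lower (Sox6, background 2.78%). Prox1 is not set against this background, because of how it passed the filter. The median log2 difference of the list was 0.09. Sox6, a repressor of slow fibre genes in mouse, had 114.3, 71.9 and 46.6 ipsilaterally, against 138.4, 122.5 and 78.5 contralaterally (log2 difference -0.50, SE 0.16, limma adjusted p = 0.586). Prox1, a factor of slow fibres, had 44.2, 71.0 and 51.7 ipsilaterally, against 29.3, 40.1 and 38.2 contralaterally (log2 difference 0.46, SE 0.17, limma adjusted p = 0.73). All ipsilateral Prox1 values lay above the filter on dim probe sets, an intensity of 42.4, and all contralateral ones below it, so Prox1 was tested only through the group where it is high. Rcan1, a target and inhibitor of the phosphatase calcineurin, had 334.2, 637.1 and 400.2 ipsilaterally, against 230.1, 223.9 and 251.3 contralaterally (log2 difference 0.86, SE 0.20, limma adjusted p = 0.385). Myog, myogenin, differed by 0.56 (SE 0.27), with -0.31 in animal 4. Without animal 4, Rcan1 and Myog, of 16 tested genes, passed the adjusted threshold as higher. So did Myh10 among the 3 tested other heavy chains, while Mylk2 among the 12 tested thick filament genes passed as lower. In that setting, with 1 residual degree of freedom, 1.55% of all tested probe sets passed as higher and 0.977% as lower. These 4 genes were looked up after their count was seen.

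**Figure D5:**
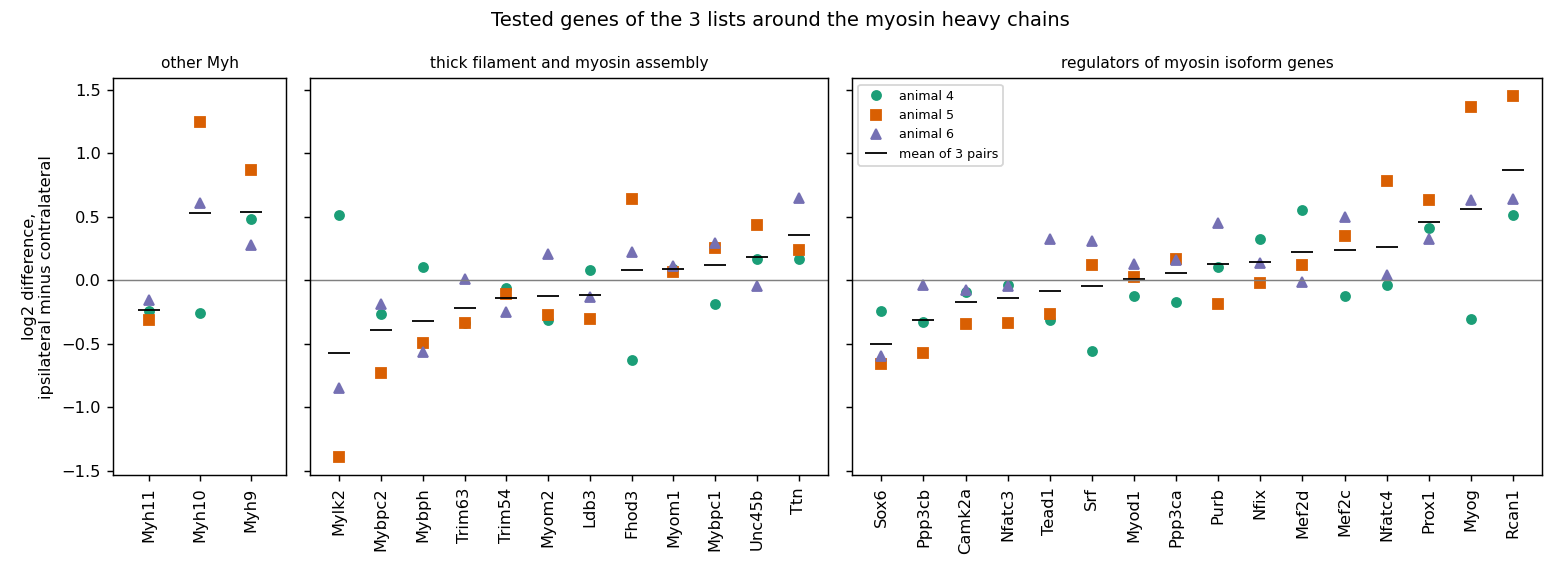
Log2 differences, ipsilateral minus contralateral, of the tested genes of the 3 lists, per animal (points) and as the mean of 3 pairs (black dash). Rcan1 has the highest mean, 0.86, and Mylk2 the lowest, -0.57, with its animal 4 on the other side of 0.

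Genes whose 6 library values ran most like those of a member were named by Pearson's r of log2 intensities, as a description in which the muscles of 1 animal are not independent. For Myh3 these were Myl2, a slow ventricular-type light chain (r = 0.989), Zbtb7a (r = 0.981) and Myoz2, calsarcin of slow fibres (r = 0.972), and 83 of 9518 other probe sets had r over 0.9. For Myh7 they were Ankrd1, a titin-associated stretch-responsive protein (r = 0.996), Pgrmc1 (r = 0.992) and Sln, the calcium pump regulator sarcolipin (r = 0.992), with 193 over 0.9. For Myh2 they were Yipf1, Klhl41 and Rybp (r = 0.989, 0.988 and 0.987, 215 over 0.9), for Myh1 Esd, Gtf3c3 and Atp6ap1 (0.986, 0.985 and 0.981, 52 over 0.9), and for Myh4 Ankrd9, Cyp51 and Hdlbp (0.994, 0.991 and 0.986, 189 over 0.9). Sln had 762.3, 2310.3 and 1824.4 ipsilaterally, against 720.5, 275.8 and 550.5 contralaterally, in animals 4, 5 and 6. Sln was lowest in contralateral 5 and highest in ipsilateral 5, as was Myh7 on the brighter probe set, whereas on the dimmer contralateral 6 was lowest. With 6 libraries, values of r over 0.9 can arise by chance, and how often was not tested.

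Markers of other cells in the muscle were counted beside the members. Among fibroblast and tendon markers 5 of 10 tested genes were higher and 1 was lower in every animal, among adipocyte markers 3 of 3 were higher, and among macrophage and immune markers 4 of 7 were lower, where 12.3% of all tested probe sets were higher and 15.1% lower in every animal. Their summed intensities were 10243 to 11699 ipsilaterally and 10030 to 11199 contralaterally for fibroblasts and tendon, 1551 to 2463 and 1087 to 1699 for adipocytes, and 2876 to 4124 and 4119 to 4455 for macrophages and immune cells. Of the endothelial markers 1 of 4 was higher in every animal, of the Schwann cell and nerve markers 2 of 4 were higher and 1 lower, and of the smooth muscle markers 2 of 3 were lower. No marker was at 0 in all libraries, none passed the adjusted threshold, and their part in the myosin values was not tested.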

How the data were processed

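RNA of 6 muscles was measured on 1 rat expression array each. Groups and animals come from the sample titles, where the abbreviation Cont was read as contralateral. The deposited table holds linear intensities, 1 for each probe set on each array, which the authors appear, from the values, to have scaled to a common trimmed mean. With which software is not stated in the labels, and detection calls were not used. Control probe sets (57 of 15923) were left out. The platform annotation, which can be old, named 12789 probe sets by 1 symbol and 312 by several, leaving 2822 unlisted, and 12754 matched a gene table of assembly GRCr8 by gene ID with 0 symbols changed. Upstream sequences are from RefSeq.

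Values were taken as log2(intensity + 15.8), the 20th percentile of all values, with no further normalization since array medians lay within 0.115 on the log2 scale (limit 0.2). This scale understates differences of dim probe sets. The 9519 probe sets with a mean above the 40th percentile (intensity 42.4) were tested with limma 3.58.1 in R 4.3.3, with an intensity trend, the animal as a block and Benjamini-Hochberg adjustment over all of them. Degrees of freedom were 2 residual and 7.47 prior. Pairing follows the labels, which take both muscles from each animal. As a check, the ipsilateral and contralateral deviations from their group's mean had correlations over probe sets of -0.04, 0.07 and 0.13 in animals 4, 5 and 6. Limma's p-values rest on the spread between 3 animals, drawn towards that of other probe sets of like intensity, as the prior degrees of freedom show. Without animal 4 the degrees of freedom were 1 residual and 10.1 prior.

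The members, lists and tests were chosen with earlier results of these data known. Named were every member probe set, up to 4 genes per list by p and the 3 genes most like each member. The lists are other myosin heavy chains, thick filament and myosin assembly, and regulators of myosin isoform genes, with 9 marker lists beside them, each gene by its brightest probe set. Myh6, Myh8 and Myh13, below the filter, were described in addition. The fit was also run on simulated data, in which animal effects were as wide as the residual spread. The correlations given above were lower than that setting implies, so the run is not used as support. Alternatives covered the block, pseudocount, normalization, filter, trend, choice of probe set and each animal left out. Plots used matplotlib 3.10.9 (Python 3.11.15).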

Additional observations from a re-analysis of the deposited data

Results flagged for a closer look

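A probe set that the annotation assigns to both Myh7 and Myh6 was no member, since it names no single gene, yet every ipsilateral library lay above every contralateral one. Its intensities were 438.8, 1815.5 and 946.3 ipsilaterally in animals 4, 5 and 6, against 339.6, 205.5 and 300.9 contralaterally. The ipsilateral mean was 3.78 times the contralateral mean, and the log2 difference was 1.67 (SE 0.39, limma adjusted p = 0.385). Its differences of 0.36, 3.05 and 1.60 in animals 4, 5 and 6 had the order seen on the Myh7 probe sets. Another tested probe set, assigned to Myh2, Myh1 and Myh8 together, overlapped between the groups. Its log2 difference was -0.07 (SE 0.16), with -0.56, 0.05 and 0.30 in animals 4, 5 and 6.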

How the results depend on the processing

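Directions of the brightest probe set of each gene and of the 6 isoform ratios were the same under all alternatives run, as were those of the dimmer Myh7 probe set. A pair of Myh1 probe sets turned sign, 1377114_at to 0.46 without animal 4 and 1383162_at to 0.22 without animal 5, and with 1 animal left out they ranged from -0.38 to 0.46 and from -0.32 to 0.22. The number of probe sets with an adjusted p under 0.05 was 0 in all 7 settings with 3 animals and 0 to 241 when 1 animal was left out, the 241 being without animal 4 and resting on 1 residual degree of freedom. At an unadjusted p under 0.05 it was 605, and 223 to 1491 with 1 animal left out. Without animal 4, Myh3, Myh7 and Myh4 passed. With 1 animal left out, the difference ranged from 2.46 to 4.36 for Myh3, from 1.07 to 2.33 for Myh7, from 0.16 to 0.53 for Myh2, from 0.06 to 0.34 for the brightest Myh1 probe set and from -1.23 to -0.76 for Myh4. The ratio of Myh7 to Myh4 ranged from 1.83 to 3.56 that of Myh3 to Myh4 from 3.21 to 5.58, that of Myh2 to Myh4 from 0.93 to 1.75, that of Myh1 to Myh4 from 0.99 to 1.29, that of Myh7 to Myh2 from 0.82 (without animal 5) to 1.80 and that of Myh3 to Myh7 from 1.02 to 2.03. The ratio of Myh3 to Myh7 was 2.24 with a pseudocount of 1 and 0.89 when the 40th percentile was added instead. Members with an unadjusted p under 0.05 numbered 4 to 6. Without the pairing by animal (no replicate block), the Myh3 difference stayed at 3.19 (limma adjusted p = 0.309), that of Myh7 at 1.71 (0.316) and that of Myh4 at -0.92 (0.596), 564 probe sets had an unadjusted p under 0.05, and no call of a member changed. Counts of genes in the 3 lists at an unadjusted p under 0.05, 0 to 2 per direction, lay between 0 and 3 in every setting. With the mean of all probe sets of a gene, the ratio of Myh7 to Myh4 was 2.53. Low signal limits Myh3 most, and the cause of the dependence on animal 4 was not tested.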
